A study of Mus musculus with 20 samples.

Results

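A set of genes of adrenergic and muscarinic signaling was described in the mouse heart. They were chosen by gene symbol and are 9 of the 23420 genes of the count table. They encode the β1- and β3-adrenergic receptors (Adrb1, Adrb3), the α1A- and α1B-adrenergic receptors (Adra1a, Adra1b), the M2 muscarinic receptor (Chrm2), the G protein subunit Gαs (Gnas), adenylyl cyclases 5 and 6 (Adcy5, Adcy6) and G protein-coupled receptor kinase 2 (Adrbk1, now named Grk2). Cardiac mRNA was sequenced from 20 male wild type C57BL/6 mice at 9 weeks of age. A control diet was given to 10 mice and an iron-deficient diet to the 10 mice with iron-deficiency anemia (IDA), in each case for 6 weeks from an age of 3 weeks. The labels give the iron content of the deficient diet with opposite signs of inequality in different fields, so it is not stated here. Each mouse gave 1 library of whole-heart RNA, and the effect of iron deficiency and that of anemia cannot be told apart in this design.

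In the heart, noradrenaline released by sympathetic nerves acts on β1-adrenergic receptors, which couple through Gαs to adenylyl cyclase, raise cAMP and increase the rate and force of contraction. Acetylcholine from the vagus acts on M2 muscarinic receptors, which couple to Gi, inhibit adenylyl cyclase and open an inward-rectifier potassium channel that slows the heart. The α1-adrenergic receptors couple to Gq and phospholipase C, and receptor kinases phosphorylate occupied receptors and so desensitize them.

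Libraries held 6797180 to 8960688 counted read pairs in controls and 6682177 to 7833916 in IDA mice. Counts were scaled to the normalized library total (CPM). In every mouse the deviation of a gene from its mean over mice was related to exonic length, and the slope of this relation (log2 CPM per doubling of length) ran from 0.0205 to 0.199 in controls and from -0.254 to -0.0252 in IDA mice, with no overlap between the groups. Long genes were thus read lower in IDA hearts and short genes higher: over 10 classes of exonic length with 1359 genes each, the median log2 fold change was 0.34 in the class of the shortest genes and -0.53 in that of the longest. Each difference is therefore given without a correction and with a gene length correction, in which the trend of each mouse on length was removed. Library numbers in the sample names formed a lower run (5 control and 7 IDA mice) and a higher run (5 control and 3 IDA mice), and values within each run are given where they differ. The study set aside a library of each diet as contaminated without naming it in the sources used here, so all 20 are included, and every tested gene was also tested without 1 mouse of each diet in all 100 combinations. The summed level of 10 cardiomyocyte markers was 6493 to 9753 CPM in controls and 5351 to 8276 CPM in IDA mice. The largest parts of this sum were Ttn and Ryr2, with control means of 3158 and 1774 CPM. Without a correction these 2 long genes were lower, 4 markers were higher and 4 were not called. The 4 higher markers, Tnni3, Myl2, Myl3 and Mb, had log2 fold changes of only 0.12 to 0.15. The part of library totals in these small differences was not tested. The median log2 fold change over the 10 was 0.08. After the length correction 3 of the 10 markers were higher and 6 lower, with a median of -0.13. In addition, 13 erythroid genes summed to 110 to 172 CPM in controls and 168 to 669 CPM in IDA mice, with Hba-a1, Hba-a2 and Hbb-b2 at 0 in all mice. The mean log2 CPM of the 5 tested erythroid genes served as the erythroid covariate. It was 2.11 to 3.18 in controls and 3.35 to 6.47 in IDA mice, with no overlap. Calls kept or lost with this covariate therefore cannot tell it from diet.

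Of the 9 genes, 8 reached the filter of 1 CPM or more in 10 or more mice and were tested, and Adrb3 did not pass. Chrm2, Adra1a, Adrb1 and Adcy6 were lower in IDA hearts, Adrbk1 and Gnas were higher, and Adra1b and Adcy5 were not called (edgeR quasi-likelihood test, adjusted p below 0.05 over all 13590 tested genes). The background was high, since 67.5% of all tested genes were called, 35% higher and 32.5% lower, and the share of these 8 genes called was near it. After the gene length correction 4 of the 8 genes were higher and 3 lower, against 55% of all tested genes, 31.5% higher and 23.5% lower. After correction for length and GC content 1 gene was higher and 3 were lower, against 47.6% of all tested genes called. Among the 8 genes none had CPM values that separated the groups completely, against 11.3% of all tested genes. In bulk tissue, fewer cells of a type and less RNA per cell cannot be told apart.

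**Figure D1:**
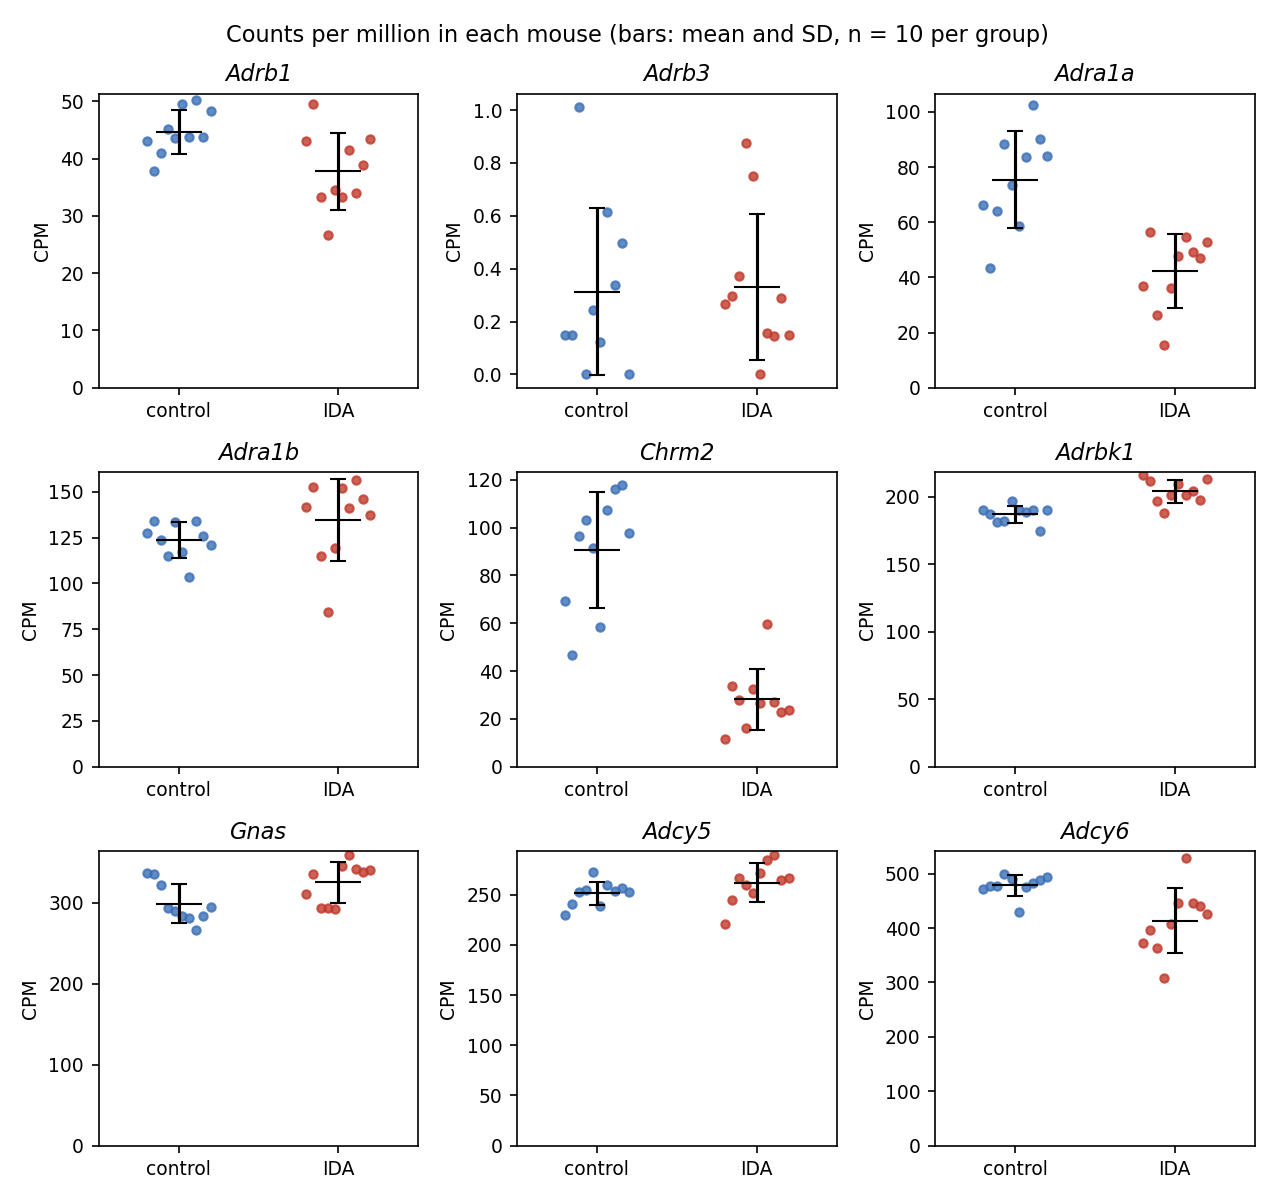
CPM of each of the 9 genes (vertical axes, linear) in the 10 control (blue) and 10 IDA (red) mice, 1 point per mouse in the order of the replicate numbers, with horizontal and vertical bars for mean and SD. Chrm2 and Adra1a show the lowest IDA values relative to control, Adrbk1 the narrowest spread relative to its mean, and Adrb3 lies at or below 1.01 CPM in every mouse.

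For the receptors that were called, the RefSeq promoter table (GRCm38.p6) held windows for Chrm2 and Adrb1, and the 250 bases before the start of transcription are shown because these are the cholinergic and the β-adrenergic receptor whose transcripts differed. The Chrm2 stretch is chr6:36387834-36388083 and the Adrb1 stretch chr19:56721867-56722116, both on the plus strand and written 5′ to 3′. In the count annotation Chrm2 begins at 36388084, directly after its stretch. Adrb1 begins there at 56722372, so the start in the promoter table lies before that of the counted gene. Capitals mark the core of the cAMP response element, TGACG, the site bound by the factor that cAMP signaling activates.
Chrm2: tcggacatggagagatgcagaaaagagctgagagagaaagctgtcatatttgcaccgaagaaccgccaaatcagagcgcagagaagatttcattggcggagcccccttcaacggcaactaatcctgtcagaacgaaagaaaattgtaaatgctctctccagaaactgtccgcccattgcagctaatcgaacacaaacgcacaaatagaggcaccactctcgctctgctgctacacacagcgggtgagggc
Adrb1: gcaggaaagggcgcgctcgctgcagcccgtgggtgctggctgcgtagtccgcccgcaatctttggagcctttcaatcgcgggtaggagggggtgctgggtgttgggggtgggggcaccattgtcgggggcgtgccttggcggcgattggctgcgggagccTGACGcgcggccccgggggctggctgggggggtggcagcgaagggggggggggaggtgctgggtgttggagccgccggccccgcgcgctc
The whole 300-base windows, which run 50 bases past the start, were searched on both strands for TGACG and for the core of the hypoxia response element, ACGTG. The Adrb1 window held TGACG at base 161 and no ACGTG, and the Chrm2 window held neither. Of all 32851 promoter windows, 20.8% held TGACG and 19.6% held ACGTG. Windows of Adcy5 and Adra1b held neither, and 3 of the 4 windows of Gnas held each motif, but windows of this gene overlap, so a site can be counted more than once. A match describes these letters only.

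Chrm2, the inhibitory receptor of the vagus, showed the largest difference among the 8 tested genes. It lies at chr6:36388084-36524774 (mm10, plus strand) and has 3 exon intervals with an exonic length of 2036 bp. Its level was 46.9, 97.1 and 118 CPM (lowest, median and highest) in controls and 11.6, 26.9 and 59.5 CPM in IDA mice. In all, 9 IDA mice were below every control, and IDA 7, at 59.5 CPM, was above 2 of the 10 controls. The log2 fold change was -1.69 (SE 0.21, adjusted p = 6.4e-07), or 0.309 times the control level, and it was -1.80 after the length correction (adjusted p = 1.2e-06). Within the lower and the higher run of library numbers it was -1.75 and -1.77. Genes in the length class of Chrm2 had a median log2 fold change of 0.20, so its direction was opposite to that of its length class.

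Chrm2 moved with the length slope of the mouse also within each diet. Over the 10 controls Pearson's r of log2 CPM with the slope was 0.965 (permutation p = 7e-05, adjusted p = 0.00112 over 16 relations), with Spearman's rho of 0.927 (permutation p = 0.0004, adjusted 0.0064) and r of 0.932 without the 2 mice farthest from the median slope. Over the 10 IDA mice r was 0.895 (permutation p = 0.00102, adjusted 0.00544), rho 0.879 (permutation p = 0.00167, adjusted 0.00891) and r 0.73 without the 2 farthest. Within the library-number runs only the 7 IDA mice of the lower run were enough for a value, with r = 0.83. With the slope as a covariate the diet difference of Chrm2 was 0.11 (SE 0.20, adjusted p = 1.00), and 5 of all 13590 tested genes were called, 0.0368%. Since the slope separated the diets completely, diet and slope cannot be told apart for Chrm2. An antisense gene, 9330158H04Rik, overlaps exons of Chrm2 and counting did not use strand, so reads shared between them cannot be assigned; it had 166 to 294 counts per mouse, with means of 25.1 CPM in controls and 31.0 CPM in IDA mice.

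**Figure D2:**
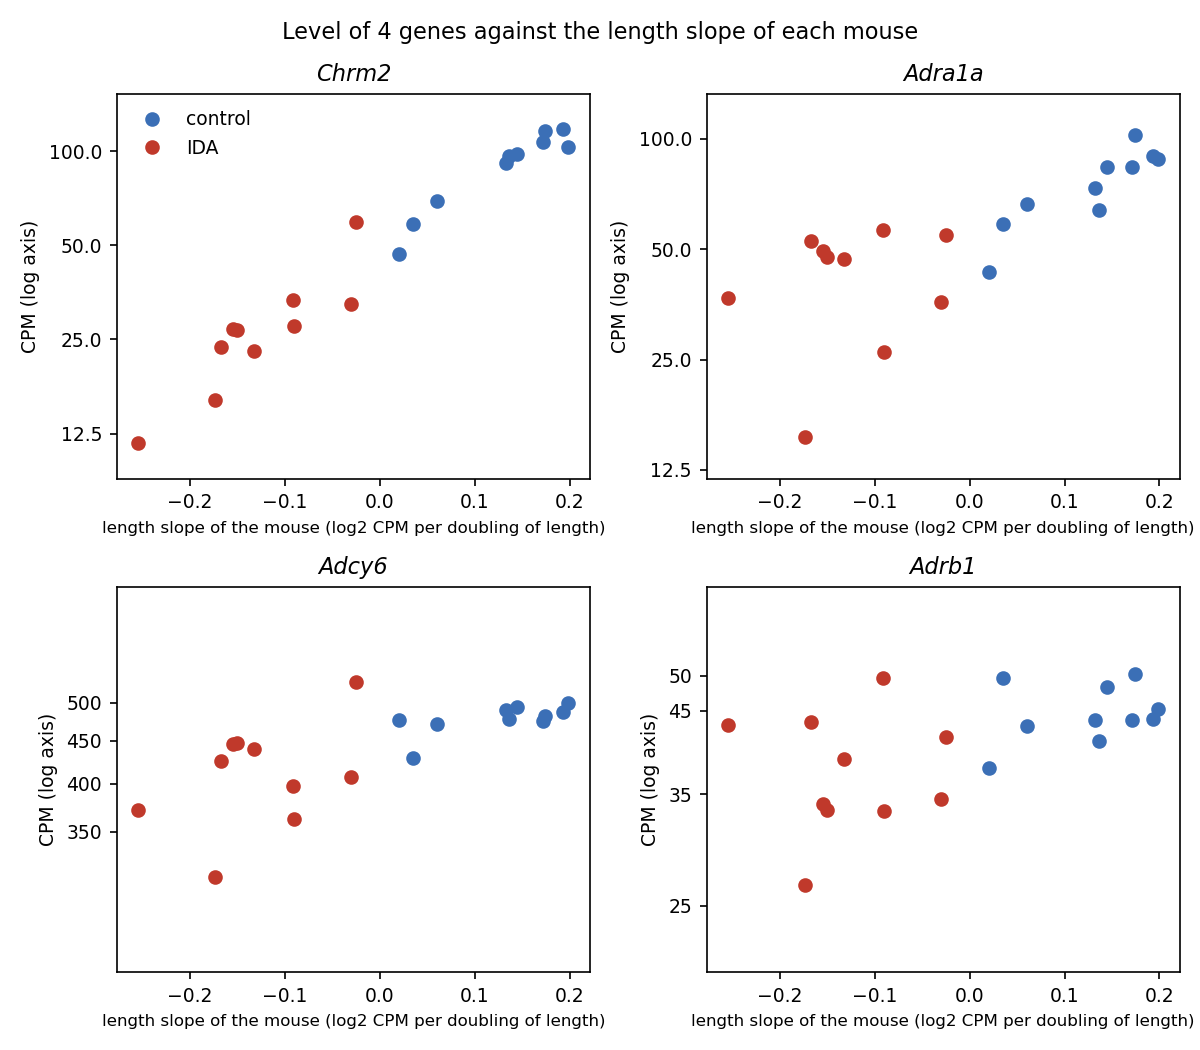
CPM of Chrm2, Adra1a, Adcy6 and Adrb1 (vertical axes, logarithmic) against the length slope of each mouse (horizontal axes, log2 CPM per doubling of exonic length), 1 point per mouse, control blue and IDA red. All IDA mice lie left of all controls, Chrm2 rises with the slope within both diets, and Adra1a does so within the controls (r = 0.892).

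Kcnj3, which encodes a subunit of the potassium channel opened by M2 receptors, was lower as well. Its mean was 66.8 ± 16.0 CPM in controls and 26.2 ± 9.12 CPM in IDA mice (SD, n = 10 each). The log2 fold change was -1.35 (SE 0.17, adjusted p = 9.1e-07), and -1.53 after the length correction. All 10 IDA mice were below the control mean, while the ranges, 38.04 to 88.5 CPM and 14.4 to 40.8 CPM, overlapped. Kcnj5, the other gene listed for this channel, was more abundant, with means of 272 CPM in controls and 226 CPM in IDA mice. Its log2 fold change was -0.27 (adjusted p = 0.0018). After the length correction it was -0.03 and the call was lost (adjusted p = 0.759). Of the 4 tested genes for muscarinic receptors and their channel, 3 were lower and 1 was not called, and 2 were lower after the length correction, against 32.5% and 23.5% of all tested genes called lower in these fits. Atrial tissue is rich in this pathway. The summed level of 6 atrial myocyte markers ran from 270 to 653 CPM in controls and from 270 to 868 CPM in IDA mice. Without a correction 1 of the 5 tested markers, Nppa, was higher and none lower, with a median log2 fold change of 0.38. After the length correction none of these markers was called, and their median was 0.06. Their part in the result was not tested.

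Adra1a, the α1A receptor, was also lower. It lies at chr14:66635251-66771168 (plus strand, 5 exon intervals, 4871 bp). Its level was 43.4, 78.6 and 102 CPM in controls and 15.4, 47.3 and 56.6 CPM in IDA mice. In all, 4 IDA mice were below the lowest control, and all 10 were below the control mean. The log2 fold change was -0.85 (SE 0.18, adjusted p = 0.00023), and -0.56 after the length correction (adjusted p = 0.0069). Genes of its length had a median of -0.32. Adra1a followed the length slope within controls (r = 0.892, permutation p = 0.00029, adjusted 0.00232, rho 0.903 with permutation p = 0.00095 and adjusted 0.0076, r 0.758 without the 2 farthest mice), whereas within IDA mice r was 0.201 (permutation p = 0.566, adjusted 0.696, rho 0.224, permutation p = 0.537, adjusted 0.716). With the slope as a covariate its difference was -0.03 (adjusted p = 1.00).

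Adra1b, the α1B receptor, was the more abundant α1 receptor and was not called. It lies at chr11:43774606-43836332 (minus strand, 2 exon intervals, 3047 bp). Its level was 104, 125 and 134 CPM in controls and 84.2, 142 and 156 CPM in IDA mice, so IDA values reached both below and above the control range. Its difference on the log2 scale was 0.12 (SE 0.083, adjusted p = 0.196), with a 95% interval from -0.05 to 0.29, and 0.18 (adjusted p = 0.078) after the length correction. Without IDA 4, the mouse at 84.2 CPM, it was called in all 10 fits that left out that mouse and 1 control, with up to 0.19. The log2 ratio of Adra1a to Adra1b, which does not depend on the library total, averaged -0.74 ± 0.41 in controls and -1.73 ± 0.34 in IDA mice (SD, n = 10 each). The difference was -0.99 (permutation p = 8e-05, adjusted p = 0.000107 over 4 ratios), it was in the same direction in 10 of 10 IDA mice, and it was -0.77 after the length correction. Per kb of exon, Adra1a stood at 0.373 of the level of Adra1b in controls and at 0.188 in IDA mice.

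Adrb1, the main β receptor of the heart, showed a small difference. It is a gene of 1 exon at chr19:56722372-56724862 (plus strand, 2491 bp). Its level was 37.9, 43.8 and 50.2 CPM in controls and 26.6, 36.7 and 49.6 CPM in IDA mice. Here 5 IDA mice were below the lowest control and 9 of 10 below the control mean. Adrb1 had a log2 fold change of -0.24 (SE 0.085, adjusted p = 0.0151), -0.28 after the length correction and -0.34 after correction for length and GC content together. It was -0.39 (adjusted p = 0.0044) within the lower run of library numbers and -0.02 (adjusted p = 0.885) within the higher run, so it did not hold within both. Neither diet showed a relation of Adrb1 with the length slope past the threshold (r = 0.298 in controls, permutation p = 0.4, adjusted 0.562, and 0.0464 in IDA mice, permutation p = 0.901, adjusted 0.961, with rho of 0.467, permutation p = 0.178, adjusted 0.407, and of 0.0303, permutation p = 0.947, adjusted 0.973). The log2 ratio of Adrb1 to Chrm2 averaged -0.96 ± 0.41 in controls and 0.53 ± 0.62 in IDA mice, a difference of 1.49 (permutation p = 6e-05, adjusted p = 0.000107), in the same direction in 10 of 10 IDA mice. The part of the length slope, with which Chrm2 moved, in this ratio was not tested.

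Adrb3, the β3 receptor known best from adipose tissue, was at the limit of detection. It lies at chr8:27225776-27229588 (minus strand, 2795 bp) and received 0 to 7 counts per mouse, 24 in all controls and 25 in all IDA mice. In the 3 mice with a count of 0, the level could be up to 0.390 to 0.445 CPM by counting error alone. The summed level of 9 adipocyte markers was 518 to 664 CPM in controls and 537 to 706 CPM in IDA mice. Most of this sum came from Plin4, Fabp4 and Cidea, with control means of 423, 108 and 52.2 CPM. Without a correction 2 of the 6 tested markers were higher and none lower. These were Fabp4, at 0.16 on the log2 scale (adjusted p = 0.0058), and Cidea, at 0.45 (adjusted p = 2.8e-06). Adipoq, Plin1 and Cidec had control means of 3.91, 2.74 and 3.19 CPM, and none of these was called without a correction. After the length correction 2 of the markers were higher and 1 lower, with a median of -0.12. The amount of adipose tissue in these samples was not tested. A difference of Adrb3 between diets was not detectable at this depth, and the difference of 0.34 in the log2 ratio of Adrb3 to Adrb1 did not pass the permutation test (p = 0.337, adjusted 0.337).

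Gnas encodes Gαs, the subunit that links β receptors to adenylyl cyclase, and its counts hardly varied. The gene lies at chr2:174284320-174346742 (plus strand, 19 exon intervals, 6059 bp) and includes several alternative start exons that were counted together. Raw counts were 2225 to 2367 over all 20 mice, a ratio of 1.06 between highest and lowest, while library totals differed by a ratio of 1.34. The SD of the raw count was 45.8 against 48.0, the square root of the mean, which is the spread of counting alone. Among the 2152 tested genes with a mean of at least 1000 counts, 19 (0.88%) had a variance below their mean. Control 8, with the largest library, had 2364 counts and 266 CPM, and IDA 10, with the smallest, had 2314 counts and 341 CPM.

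**Figure D3:**
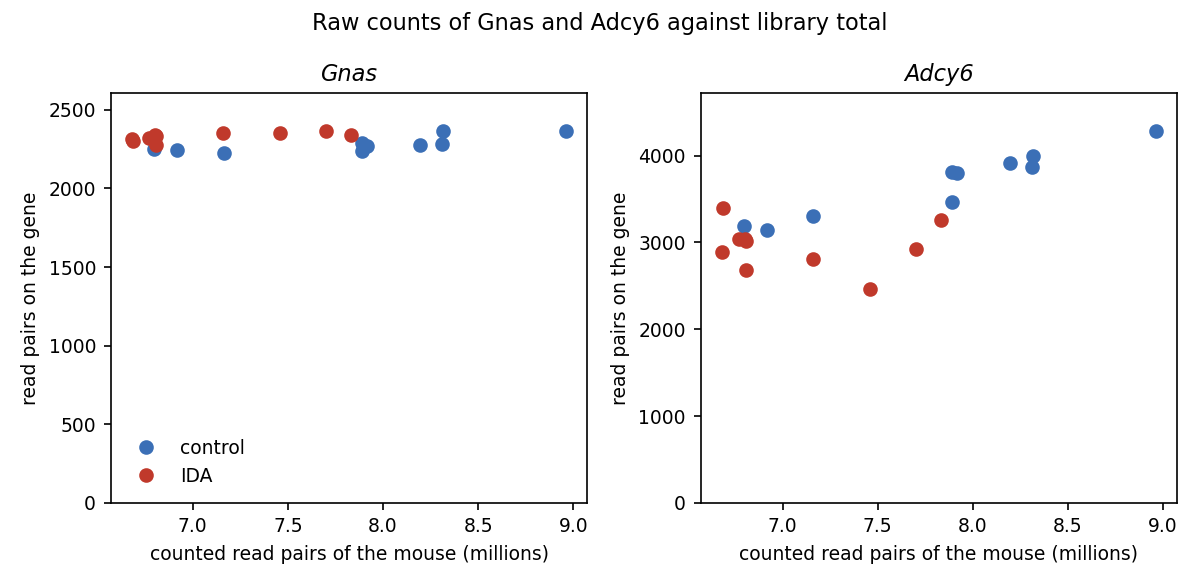
Read pairs counted on Gnas and on Adcy6 (vertical axes from 0) against the counted read pairs of the library (horizontal axes), 1 point per mouse, control blue and IDA red. Gnas stays between 2225 and 2367 at every library size, while Adcy6 spans 2469 to 4287.

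In CPM, Gnas was 266, 292 and 337 in controls and 292, 337 and 359 in IDA mice, and 5 IDA mice were above the highest control. The log2 fold change was 0.12 (SE 0.050, adjusted p = 0.0336) and 0.50 after the length correction (adjusted p = 6.0e-06). It was 0.23 (adjusted p = 0.0035) within the lower run of library numbers, -0.02 (adjusted p = 0.817) within the higher run, and -0.02 (adjusted p = 0.478) with the library total as a covariate. The call held in 52 of 100 fits that left out 1 mouse of each diet. After correction for length and GC content it was 0.28 (adjusted p = 0.00091). Library totals had medians of 7902932 in controls and 6806177 in IDA mice, and their part in the CPM difference of Gnas was not tested beyond the covariate fit. Duplicate read pairs were removed before counting, and the part of this step in the Gnas counts was not tested. Nespas, an antisense gene that overlaps Gnas, had 0 or 1 counts per mouse.

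Adcy6 and Adcy5 encode the main adenylyl cyclases of cardiac myocytes, which make cAMP from ATP. Adcy6, at chr15:98589986-98607633 (minus strand, 22 exon intervals, 6025 bp), had 429, 480 and 500 CPM in controls and 309, 417 and 530 CPM in IDA mice. Here 6 IDA mice were below the lowest control and IDA 7 was above the highest. Its log2 fold change was -0.21 (SE 0.065, adjusted p = 0.0063) without a correction, 0.17 (adjusted p = 0.026) after the length correction and -0.05 (adjusted p = 0.503) after correction for length and GC content. The direction of Adcy6 therefore depended on the correction. It was -0.14 (adjusted p = 0.209) within the lower run of library numbers and -0.37 (adjusted p = 0.0024) within the higher.

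Adcy5, at chr16:35155636-35304549 (plus strand, 21 exon intervals, 5060 bp), had 230, 253.25 and 272 CPM in controls and 221, 266 and 290 CPM in IDA mice, so the groups overlapped widely. Its log2 fold change was 0.06 (SE 0.042, adjusted p = 0.208), with a 95% interval from -0.03 to 0.15. After the length correction it was 0.36 (adjusted p = 1.1e-06), and after correction for length and GC content 0.08 (adjusted p = 0.053). The log2 ratio of Adcy5 to Adcy6 averaged -0.93 ± 0.063 in controls and -0.65 ± 0.18 in IDA mice (SD, n = 10 each), a difference of 0.28 (permutation p = 6e-05, adjusted p = 0.000107) that was 0.20 after the length correction (permutation test, adjusted p = 0.00046). This ratio was higher than its control mean in each of the 10 IDA mice. The strongest relations with the length slope beyond those of Chrm2 and Adra1a were those of Adcy5 and Adcy6 in controls, with r of 0.708 and 0.666 and rho of 0.612 and 0.636, and they did not pass the threshold (permutation tests, adjusted p = 0.0607 for each r and 0.213 for each rho). Per kb of exon, Adcy5 stood at 0.626 of the level of Adcy6 in controls and at 0.76 in IDA mice.

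Adrbk1, the kinase that phosphorylates occupied β receptors, was slightly higher. It lies at chr19:4286001-4305955 (minus strand, 22 exon intervals, 3182 bp). Its level was 175, 189 and 197 CPM in controls and 188, 203 and 216 CPM in IDA mice, with 8 IDA mice above the highest control. Its log2 fold change was 0.12 (SE 0.031, adjusted p = 0.0013), a factor of 1.09, and 0.20 after the length correction (adjusted p = 7.5e-05). It was 0.11 (adjusted p = 0.032) and 0.13 (adjusted p = 0.079) within the lower and higher runs of library numbers, and 0.03 (adjusted p = 0.477) after correction for length and GC content. Adrbk1 had the lowest variation of the 9 genes, with coefficients of variation of 3.36% in controls and 4.28% in IDA mice.

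**Figure D4:**
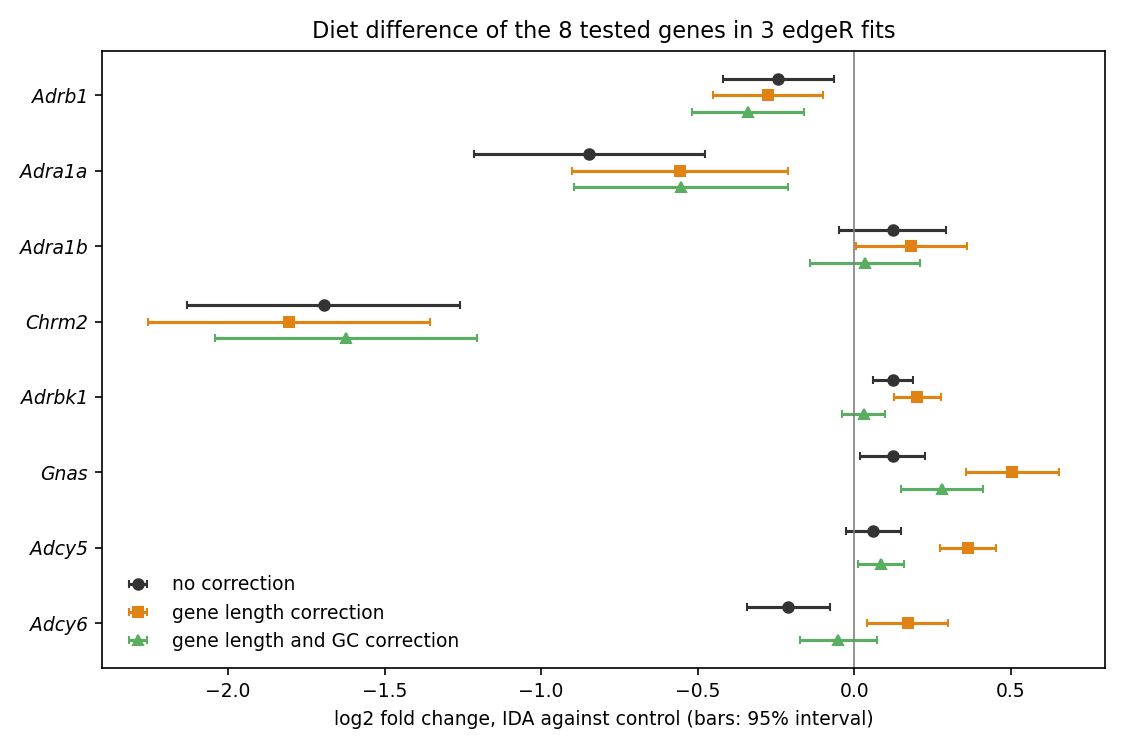
Log2 fold change of IDA against control (horizontal axis) for the 8 tested genes in edgeR fits without a correction (circles), with the gene length correction (squares) and with correction for length and GC content (triangles), with bars for the 95% interval. Chrm2, Adra1a and Adrb1 lie left of 0 in each fit, and Adcy6 lies on opposite sides of 0 in different fits (-0.21 and 0.17).

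Levels of different genes were compared per kb of exon. In controls the order of mean CPM per kb was Adcy6 (79.4), Adrbk1 (58.9), Adcy5 (49.7), Gnas (49.3), Chrm2 (44.4), Adra1b (40.6), Adrb1 (17.9), Adra1a (15.5) and Adrb3 (0.112). The ranges of neighbours overlapped from Adcy5 through Adra1b and between Adrb1 and Adra1a, and did not overlap elsewhere. In IDA hearts the order was Adcy6 (68.7), Adrbk1 (64.1), Gnas (53.7), Adcy5 (51.8), Adra1b (44.2), Adrb1 (15.2), Chrm2 (13.8), Adra1a (8.67) and Adrb3 (0.118), and neighbours overlapped except between Adra1b and Adrb1 and between Adra1a and Adrb3. Chrm2 stood above Adra1b in 7 of 10 controls, and in IDA hearts its mean lay below those of Adra1b and Adrb1, while its range, 5.72 to 29.2 CPM per kb, overlapped both. The Gnas level per kb rests on a union of exons longer than a single transcript.

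Genes with the most similar pattern to each tested gene were found from length-corrected log2 CPM, as deviations from the diet means, over the 20 mice. Chrm2 was nearest to Mll5 (r = 0.971) and Nr2c2 (r = 0.967), both of which were lower in IDA hearts, with log2 fold changes of -1.11 and -1.59. Gnas was nearest to Ogdh (r = 0.995) and Myh6 (r = 0.987), and raw counts of these genes also varied little, from 7220 to 7837 and from 10013 to 10651. Adra1a was nearest to Zfp708 (r = 0.933) and Cnot3 (r = 0.886), Adra1b to 4430402I18Rik (r = 0.938) and 9030617O03Rik (r = 0.931), and Adrb1 to Trib2 (r = 0.864) and Dusp10 (r = 0.849). Among the nearest genes were Trap1 (r = 0.945) and Vps13d (r = 0.944) for Adcy6, Sptan1 (r = 0.877) for Adcy5, and Ptges2 (r = 0.922) and Cars2 (r = 0.911) for Adrbk1. These correlations describe the same 20 libraries, which share depth and length slope.

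A wider list of 132 genes placed the 9 in their pathway, with 116 tested. Without a correction 31 were higher, 50 lower and 35 not called, with a median log2 fold change of -0.14 against 0.02 over all tested genes. After the length correction 39 were higher and 31 lower, with a median of 0.04, which was also the median over all tested genes. The counts by role are to be read against the shares of all tested genes, 35% higher and 32.5% lower without a correction and 31.5% and 23.5% with it. Among 17 phosphodiesterases, which break down cyclic nucleotides, 12 were lower and 1 higher without a correction, and 7 lower and 4 higher with it. Their median exonic length was 4912 bp, and 51.9% and 66.6% of all genes were called lower without a correction in the classes with median lengths of 4390 and 5423 bp. Among 12 effectors of Gq, 9 were lower and none higher without a correction, and 2 lower and 3 higher with it. Their median length was 6685 bp, and in the 2 classes of the longest genes 66.6% and 80% of all genes were called lower without a correction. Among 8 tested adenylyl cyclases, 3 were lower and 1 higher without it, and 1 lower and 4 higher with it.

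**Figure D5:**
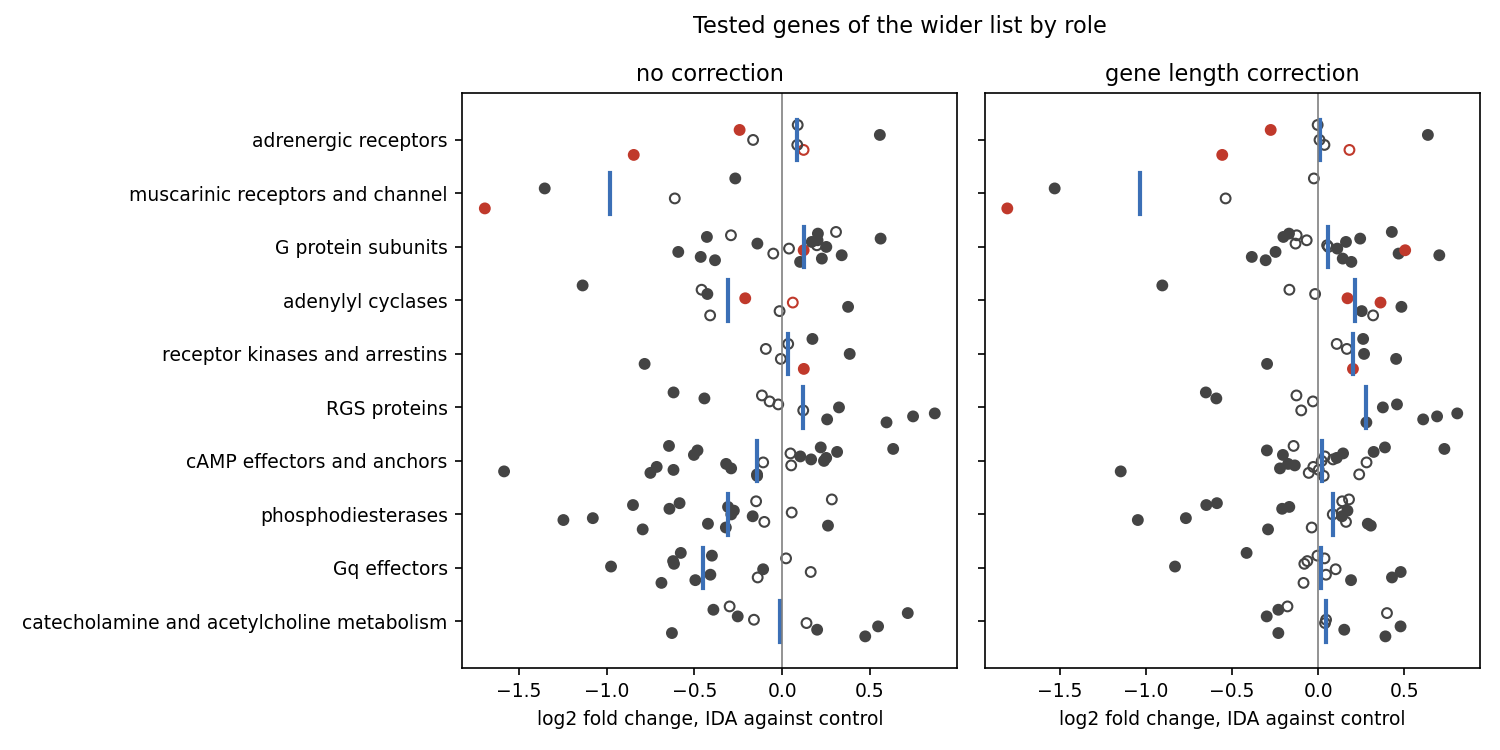
Log2 fold change (horizontal axes) of the 116 tested genes of the wider list by role, without a correction (left) and with the gene length correction (right). Points are genes, filled where the adjusted p was below 0.05, the 8 tested genes of the report are red, and blue bars are medians of each role; phosphodiesterases have a median of -0.31 on the left and 0.08 on the right, and Gq effectors -0.45 and 0.02.

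Several genes that make, break down or respond to cAMP were called in both fits. Pde3a, a phosphodiesterase of cardiac myocytes, went from 112 ± 24.5 CPM to 47.3 ± 22.7 CPM, or by -1.25 on the log2 scale (SE 0.21, adjusted p = 1.8e-05) and -1.05 with the length correction. Adcy9, a further adenylyl cyclase, changed by -1.14 (adjusted p = 2.8e-06) and by -0.91 with the length correction, from 67.1 to 30.6 CPM. Akap5, an anchoring protein for protein kinase A, changed by -1.58 (adjusted p = 2.4e-06) at a low level of 12.2 and 4.11 CPM, and by -1.15 with the length correction and -0.9992 with length and GC content. Prkar2b, a regulatory subunit of protein kinase A, was higher at 0.63 (adjusted p = 0.0098), or 0.73 with the length correction, from 8.31 to 12.8 CPM, and its call was lost with the erythroid markers as a covariate (adjusted p = 0.215).

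Of the 19 tested G protein subunits, 9 were higher and 5 lower, with the same counts after the length correction, against 67.5% and 55% of all tested genes called in either direction. Gnaq, the α subunit that couples α1 receptors to phospholipase C, was lower, at -0.59 on the log2 scale (adjusted p = 2.8e-06) and at -0.25 with the length correction. Plcb4, a phospholipase C of that pathway, was lower at -0.98 (adjusted p = 1.9e-06) and -0.83. Gng11, a γ subunit, was higher at 0.56 (adjusted p = 8.2e-06), and at 0.24 with the length correction. Of the 7 tested adrenergic receptors, Adra1a and Adrb1 were lower and Adra2c, at 1.15 CPM in controls and 1.69 CPM in IDA mice, passed narrowly at 0.56 (adjusted p = 0.049), and at 0.64 with the length correction. The call of Adra2c was lost with length and GC content (0.28, adjusted p = 0.338), with DESeq2 (adjusted p = 0.064), without the filter on low counts, with the library total or the erythroid markers as a covariate, by the rule of both tools, and in 75 of 100 fits without 1 mouse of each diet, among them every fit without control 3, 4, 7 or 8.

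Among 7 receptor kinases and arrestins, 3 were higher and 1 lower, against 67.5% of all tested genes called. Adrbk2, the close relative of Adrbk1, was lower at -0.78 (SE 0.094, adjusted p = 5.0e-07), with means of 47.2 CPM in controls and 27.4 CPM in IDA mice, and it was -0.30 after the length correction. Arrb2, a β-arrestin that binds phosphorylated receptors, was higher at 0.38 (adjusted p = 3.6e-05), at 0.27 with the length correction and at 0.14 with length and GC content. Adcy4, an adenylyl cyclase, was higher at 0.38 (adjusted p = 1.8e-05), and at 0.48 with the length correction. Pde1b, a phosphodiesterase activated by calmodulin, was higher at 0.26 (adjusted p = 0.026) and 0.30, but its call was lost with length and GC content (adjusted p = 0.086), with the erythroid covariate (adjusted p = 0.181), by the rule of both tools and in 40 of 100 fits without 1 mouse of each diet. RGS proteins shorten G protein signals, and of 11 tested, 5 were higher and 2 lower, a share called near the 67.5% of all tested genes. Rgs16 was higher at 0.87 (adjusted p = 0.0029), or 0.81 with the length correction, and Rgs7 lower at -0.62 (adjusted p = 0.00083), or -0.65. With the erythroid covariate, which separated the diets, both calls were lost (adjusted p = 0.123 and 0.148).

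Of 10 tested genes of transmitter metabolism, 4 were higher and 3 lower, a share called near the 67.5% of all tested genes. Dbh, which makes noradrenaline from dopamine, was higher in 10 of 10 IDA mice than the control mean, at 20.6 ± 3.00 CPM in controls and 30.1 ± 5.91 CPM in IDA mice, a difference on the log2 scale of 0.55 (SE 0.11, adjusted p = 9.0e-05), or 0.48 after the length correction. The ranges, 15.1 to 25.1 CPM and 23.1 to 41.3 CPM, overlapped. Bche, a cholinesterase, was lower at -0.63 (adjusted p = 1.7e-07), at -0.23 with the length correction and at -0.087 with length and GC content, where its call was lost (adjusted p = 0.053). Chat, which makes acetylcholine, was at 0 in all mice, and the summed level of 10 neuron and Schwann cell markers was 37.98 to 52.4 CPM in controls and 36.0 to 68.0 CPM in IDA mice.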

How the data were processed

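RNA was extracted from frozen, pulverized whole hearts, and 1 poly(A)-selected library per mouse was sequenced in paired ends. The authors aligned reads with STAR to mm10, removed PCR duplicates with samtools and made the deposited counts, which are raw read pairs per gene over exons without strand, with featureCounts 1.4.5-p1. The 9 genes and all gene lists were chosen with earlier results of these data known. The study excluded 1 sample of each diet for contamination. Which ones is not given in the sources used here, so no sample was left out, and totals were 6682177 to 8960688. Raw counts of the tested genes among the 9 spread over mice by more than counting alone, except for Gnas. For Adrb3 the limits cover counting error only (3 counts for a count of 0). Diets were compared with edgeR 4.0.16 in R 4.3.3 (quasi-likelihood test, TMM factors, diet as the only term, a filter of 1 CPM or more in 10 or more mice, Benjamini-Hochberg adjustment over 13590 genes). The gene length correction entered, as offsets, a loess curve (span 0.5, degree 1) of each mouse on log2 exonic length; GC content was added from reference transcripts for 99.2% of tested genes. Ratios and correlations used 100000 two-sided permutations. The SE of a log2 fold change is its size over the root of the F statistic. Further genes of the wider list were named where, in a role and direction, they had the largest log2 fold change among those called with the same sign with and without the length correction. Kcnj5 was named in addition, as the other gene listed for the channel of Kcnj3. The 2 genes most like each tested gene were also named, except that 1 item is not reported here. DESeq2 1.42.0, covariates, library-number runs, a replicate block and left-out mice were alternatives. The edgeR step was also run on simulated counts, with and without the length trend fitted to these data. Such a run cannot show that the length correction suits the real counts.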

Additional observations from a re-analysis of the deposited data

Results flagged for a closer look

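In each diet the lowest and the highest mouse were compared with the others by Dixon's gap test for the CPM of each gene and for 4 log2 ratios, and 3 values in 26 groups lay farther from their neighbour than its 95% limit. Chance marks about 1 in 20 groups. Chrm2 was 59.5 CPM in IDA 7, the highest of the IDA mice, which also had the highest length slope of its group, at -0.0252. Without IDA 7 and 1 control the log2 fold change of Chrm2 remained past the threshold, as in all 100 fits that left out 1 mouse of each diet. Adcy6 was 429 CPM in control 6, the lowest of the controls. The log2 ratio of Adra1a to Adra1b was -1.62 in control 2, the lowest of the controls, which had the lowest length slope of its group, at 0.0205.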

How the results depend on the processing

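Chrm2, Adra1a and Adrb1 kept their direction and their call with DESeq2, with other normalization factors, without the filter on low counts, with correction for length or for length and GC content, with the erythroid covariate and in all 100 fits that left out 1 mouse of each diet, and so did Chrm2 and Adra1a within both library-number runs and with the library total as a covariate. The fits within library-number runs, with a run term and with the length slope as a covariate were chosen after seeing the data. With the library total as a covariate Adrb1 was -0.25 (adjusted p = 0.061) and Gnas -0.021. With the erythroid covariate Adcy6 was -0.20 (adjusted p = 0.105) and Gnas 0.15 (adjusted p = 0.103). The erythroid covariate separated the diets, so calls kept or lost with it cannot tell it from diet. With the length correction Adcy5 was 0.36 and Adcy6 reversed to 0.17; with length and GC content Adcy6 was -0.051 and Adrbk1 0.030. In the higher run of library numbers Adrb1 was -0.024, Adcy5 -0.048, Adrbk1 0.13 and Gnas -0.022, and in the lower run Adcy6 was -0.14. With the length slope as a covariate the differences were -0.17 for Adrb1, -0.032 for Adra1a, 0.11 for Chrm2, 0.038 for Adcy6, 0.048 for Adrbk1 and 0.0083 for Gnas, none called. By p below 0.01 in both tools, the rule of the study's methods, Gnas (0.12) was not called. Over the fits that left out 1 mouse of each diet, Adra1b ran from 0.070 to 0.19, Adcy5 from 0.030 to 0.099 (called in 2 fits, both without IDA 1) and Gnas from 0.081 to 0.16. Causes were not tested.

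Same-numbered mice did not deviate together (correlations from -0.28 to 0.26, 3 of 10 above 0.1), so numbers did not pair the mice. With the number as a replicate block Gnas was 0.12 (adjusted p = 0.070) and the other 7 tested genes kept their call; the block with the length correction gave 0.36 for Adcy5 and 0.16 for Adcy6.

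Of the 9 genes, 2 were called higher and 4 lower, against 35% and 32.5% of all tested genes. The count called higher was 4 with the length correction, against 31.5% of all tested genes. It was 1 with length and GC content (28.1% of all tested genes), with the library total (29.1%) and with the erythroid covariate (28.3%). With the replicate block (33.7%) and by both tools (30.6%) it was 1 as well, and it was as low as 1 in left-out fits. In the higher run it was 0 (19.4%). With the slope covariate the counts called higher and lower were both 0, against 0.0294% and 0.00736% of all tested genes. Over all tested genes, 4761 were higher and 4416 lower, with 2635 higher in the higher run, 2653 lower with length and GC content, and 4 higher and 1 lower with the slope covariate. Of the 116 tested genes of the wider list, 18 were higher with the erythroid covariate, against 28.3% of all tested genes. With the length correction, with length and GC content, and with the block and length correction, 31, 25 and 29 were lower. The shares of all tested genes called lower in these fits were 23.5%, 19.5% and 22.2%.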
